A study of Mus musculus with 15 samples.

Results

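The hearts of B6C3F1 hybrid mice were compared with those of C57Bl/6 mice, using 10 of the 15 arrays of the series, chosen by their strain labels. B6C3F1 is the first-generation cross of C57Bl/6 and C3H, so that each autosome is present in a C57Bl/6 and a C3H copy. C57Bl/6 (C57BL/6J in the protocol) is inbred and carries the C57Bl/6 copy only. Both groups held 5 male mice aged 9 to 10 weeks, with 1 heart apex on each array. All had a radiotelemetry transmitter placed in the abdomen at 7 weeks under tribromoethanol (250 mg/kg), were housed singly, received no other treatment and were killed with CO2. The other 5 arrays, from C3H (C3H/HeJ in the protocol) mice handled the same way, entered the fit for its estimate of spread, and their levels are given beside the others for reference. The study set heart gene expression of these strains beside each other without a treatment.

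A first-generation hybrid carries 1 allele of each parent at every autosomal locus. Where an inherited variant near a gene changes its transcript level, the hybrid usually expresses a mixture of the allelic outputs. By the naming convention of the cross the mother is C57BL/6 and the father C3H, so that a B6C3F1 male has a C57BL/6 X chromosome, a C3H Y chromosome and C57BL/6 mitochondria. C57BL/6J itself is known for several null or altered alleles, among them a deletion within the mitochondrial transhydrogenase gene Nnt and a promoter deletion that silences the class II gene H2-Ea. Probes in this table are not located relative to either deletion, so that these genes could not check the labels. By their brightest probe sets Nnt differed by -0.01 ± 0.10 (SE) and H2-Ea by -0.22 ± 0.40. A second Nnt probe set differed by 0.48, with arrays that did not overlap (12.95 in B6C3F1 and 12.47 in C57Bl/6). A second H2-Ea probe set differed by 0.77, and neither passed in limma (adjusted p = 0.131 and 0.256). On these second probe sets C3H averaged 13.05 for Nnt and 6.63 for H2-Ea, the latter against 5.61 in C57Bl/6.

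Levels are given as log2(signal + 16), and a difference is the B6C3F1 mean minus the C57Bl/6 mean on that scale, which understates the change of dim genes. A probe set passed at a Benjamini-Hochberg adjusted p under 0.05 in limma over 27019 tested probe sets. A gene is spoken of through its probe set of highest mean, called its brightest. Adjusted p-values for genes below are from that limma fit. Some lists also give counts at an unadjusted limma p under 0.05. The share of all probe sets at that cut is not given here, but it is above the cut itself. For the gene Zfy2, an unadjusted limma p of 0.0221 corresponded to an adjusted p of 0.184. Such counts alone therefore do not set a list apart. Of all probe sets tested, 807 passed (2.99%), 426 higher in B6C3F1 (1.58%) and 381 lower (1.41%). When arrays were scaled to a common median, which moved the median difference by 0.04, the calls were 324 higher and 157 lower, so that 67.4% of calls were higher in place of 52.8%. Of 13111 genes, 436 passed (3.33%), 243 higher (1.85%) and 193 lower (1.47%). The arrays of the groups did not overlap for 807 genes, which is 6.16% of those tested, and for 345 of the 436 that passed. Precision is set by having 5 arrays a group, and the median standard error of a gene's difference was 0.16.

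The group means of the quality measures were close with all arrays. The Gapdh 3 prime over 5 prime log2 ratio, a sign of RNA integrity, was 0.90 ± 0.21 (SD, n = 5) in B6C3F1 and 0.85 ± 0.24 in C57Bl/6 (exact two-sided permutation p = 0.754). Spiked poly-A control RNA read 8.70 ± 0.15 and 8.69 ± 0.60 (exact permutation p = 1), and the smallest p that 5 against 5 arrays allow is 0.00794. All 8 cardiomyocyte markers were measured. Of these, 0 passed in limma and 0 had an unadjusted p under 0.05, while 7 lay below 0, with a median of -0.09. Myh6, the adult myosin heavy chain of the mouse ventricle, lay between 15.69 and 16.32 on every array of both groups. The CD3 chain genes of T cells, Cd3e, Cd3d and Cd3g, fell below the filter on dim probe sets, as did the adipocyte hormone genes Adipoq and Lep.

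The largest differences were rises in B6C3F1, many of them of genes that were dim in C57Bl/6. Among genes that passed, 71 rises and 23 falls reached 2-fold, and 15 rises and 1 fall reached 4-fold. The median rise was 0.74 and the median fall -0.57. For 14 of the higher genes the C57Bl/6 mean lay below the dim filter of 5.74, and for 1 of the lower genes the B6C3F1 mean did. The filter took the mean over all 15 arrays. A gene dim in C57Bl/6 alone was therefore tested through its B6C3F1 and C3H signal. The counts of large rises and falls thus depend in part on the filter and do not compare the directions evenly.

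Pdxdc1, which codes for a protein with a pyridoxal-dependent decarboxylase domain, showed the largest difference (5.75 ± 0.16, adjusted p = 1.85e-15). It read 10.84, 10.62, 10.93, 10.81 and 10.81 on the B6C3F1 arrays and 4.98, 5.02, 5.47, 5.38 and 4.42 on the C57Bl/6 arrays. The groups were far apart on every array, yet its 3 other probe sets were all lower in B6C3F1 (-0.85 to -0.24), 1 of them past the threshold at -0.85. The size and the direction of the Pdxdc1 difference therefore depended on the probe set.

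Kcnj14, an inward-rectifier potassium channel subunit, was 15.6-fold higher in B6C3F1 (difference 3.96 ± 0.20, adjusted p = 8.37e-11). Its levels were 10.00, 9.65, 9.74, 9.85 and 9.89 in B6C3F1 and 4.87, 6.36, 6.20, 5.89 and 6.01 in C57Bl/6, with no overlap. The C3H arrays averaged 11.32 ± 0.23. Gbp2b, an interferon-inducible guanylate-binding protein gene known to be expressed in some mouse strains and not in others, rose by 3.91 ± 0.29. It read 8.45 to 9.06 in B6C3F1 against 4.22 to 4.77 on 4 C57Bl/6 arrays and 6.32 on the remaining one.

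Fmn1, a formin that nucleates actin filaments, rose by 3.50 ± 0.17 and stood at 9.58 ± 0.21 (SD) in B6C3F1 against 6.09 ± 0.14 in C57Bl/6. Baiap2l1, an adaptor that links membrane curvature to actin, rose by 3.18 ± 0.14, from 8.62 ± 0.23 to 11.80 ± 0.16, and its second probe set rose by 3.37. Itga9, an integrin alpha chain, rose by 2.08 ± 0.25. Dnah8, an axonemal dynein heavy chain, rose by 2.21 ± 0.36 with C57Bl/6 levels spread from 4.15 to 6.43.

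Slc25a29, a mitochondrial carrier of basic amino acids, was 3.99-fold higher and was among the brightest of the large rises (11.13 ± 0.22 against 9.13 ± 0.27). All 4 of its other probe sets were also higher (0.45 to 1.499), 1 of them past the threshold. Genes for a hydrolase domain protein, Abhd1 (3.20 ± 0.19), and for the HD-domain phosphohydrolase Hddc3 (2.21 ± 0.14) rose as well, although a second Hddc3 probe set differed by 0.04. Ccnb1ip1, a ligase known from meiotic crossover formation, rose by 2.48 ± 0.31. Them7 (2.60), 3300002P13Rik (2.30) and Tmem87a (2.21) completed the large rises without overlap that are described here. All 14 of these genes passed in each of the 10 fits that left out 1 B6C3F1 or C57Bl/6 array.

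**Figure D1:**
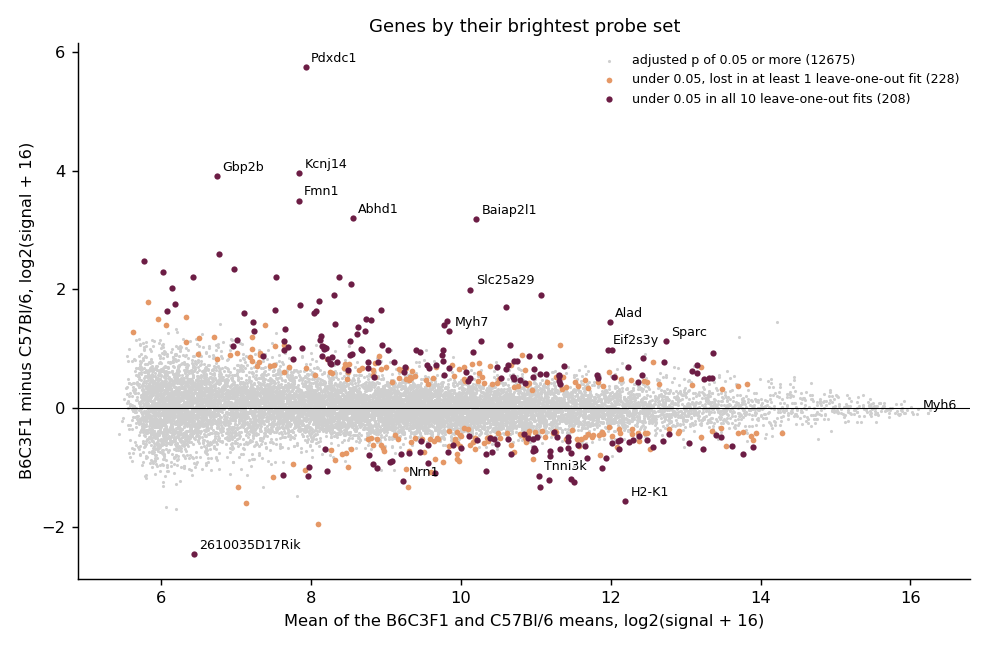
Each point is a gene through its brightest probe set, with the mean of the B6C3F1 and C57Bl/6 means on the x axis and the difference B6C3F1 minus C57Bl/6 on the y axis, both on the log2(signal + 16) scale. Grey points did not pass, orange points passed with all arrays but not in every leave-one-out fit, and dark points (208 genes) passed in all 10; Pdxdc1 lies highest at 5.75 and 2610035D17Rik lowest at -2.46.

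The falls were smaller. 2610035D17Rik fell by 2.46 ± 0.39 on the log2 scale, from 7.67 ± 0.44 (SD, n = 5) in C57Bl/6 to 5.21 ± 0.83 in B6C3F1, where it was below the dim filter on average. Antigen presentation genes (H2-K1, H2-D1, H2-Aa, H2-Eb1) followed and are described with their lists. Nrn1, which codes for the neurotrophic surface protein neuritin, fell by 1.23 ± 0.14 (adjusted p = 1.18e-05), with 8.53 to 8.77 in B6C3F1 and 9.61 to 10.11 in C57Bl/6. Smim10l1, a small membrane protein gene, fell by 1.33 ± 0.15, but its 3 other probe sets ranged from -0.66 to 0.06 and none of the 3 passed.

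Neat1, the long non-coding RNA that scaffolds paraspeckles, fell by 1.21 ± 0.21 (adjusted p = 0.00196). It read 10.66, 10.33, 10.50, 10.62 and 10.75 in B6C3F1 and 12.05, 10.99, 11.57, 12.49 and 11.82 in C57Bl/6. The B6C3F1 arrays were all lower and closer together. The C3H mean of 11.90 ± 0.38 was near that of C57Bl/6. A second Neat1 probe set differed by 0.32 and did not pass.

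Sorcs2, a sortilin-family receptor, fell by 1.15 ± 0.25, and Dand5, a secreted antagonist of nodal and BMP ligands, by 1.13 ± 0.22. The ribonuclease gene Ang, known as angiogenin, fell by 1.08 ± 0.26, with C57Bl/6 at 10.14 ± 0.25, B6C3F1 at 9.06 ± 0.27 and C3H at 4.89 ± 0.72. Of the 2 other Ang probe sets, 1 passed at -0.97 and the other differed by -0.07. Akr1e1, an aldo-keto reductase, fell by 1.09 ± 0.18, although its second probe set differed by 0.08. The second probe set of Rassf4, a Ras-association domain gene, differed by -0.07. By their brightest probe sets Rassf4 (-1.06) and E330017L17Rik (-1.04) were the last of the 15 largest falls among genes whose arrays did not overlap. Mid1, described with the X-linked genes, fell by more with an overlap. Of these 15, all but E330017L17Rik and Ang passed in each of the 10 leave-one-out fits, and those 2 passed in 6.

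Of 6 tested genes annotated to the Y chromosome, 3 rose (50%), against 11 of 420 on the X (2.62%) and 422 of 12622 on the autosomes (3.34%). Those that rose are widely expressed regulators with an X-linked counterpart: Eif2s3y codes for a subunit of the translation initiation factor eIF2, and Uty and Kdm5d for histone demethylase family proteins. The shares count genes that passed in either direction. The Y-linked list was known from earlier results of these data, and the X-linked genes below were named after their values were seen. Because these 3 genes rose together, 250 bases before each start site are printed from RefSeq (GRCm38.p6, the C57BL/6J reference), 5′ to 3′ on the gene's own strand. Capitals mark matches on either strand to the core promoter element spelled TATAAA. Capitals also mark the element known to bind Sp1-family factors, searched as GGGCGG on either strand. The letters of a further common promoter element, CCAAT, were searched in the same way.
Eif2s3y, chrY:1010345-1010594, plus strand: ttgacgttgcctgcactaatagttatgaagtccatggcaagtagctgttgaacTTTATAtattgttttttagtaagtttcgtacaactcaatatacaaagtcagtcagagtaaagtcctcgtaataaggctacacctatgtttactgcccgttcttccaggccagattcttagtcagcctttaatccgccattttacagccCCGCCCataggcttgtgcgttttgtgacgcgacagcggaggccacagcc
Uty, chrY:1245760-1246009, minus strand: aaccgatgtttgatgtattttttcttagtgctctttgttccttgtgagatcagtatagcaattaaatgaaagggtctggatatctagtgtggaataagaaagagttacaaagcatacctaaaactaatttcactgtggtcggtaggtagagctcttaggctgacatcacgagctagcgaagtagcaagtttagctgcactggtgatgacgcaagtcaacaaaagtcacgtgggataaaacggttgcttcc
Kdm5d, chrY:897538-897787, plus strand: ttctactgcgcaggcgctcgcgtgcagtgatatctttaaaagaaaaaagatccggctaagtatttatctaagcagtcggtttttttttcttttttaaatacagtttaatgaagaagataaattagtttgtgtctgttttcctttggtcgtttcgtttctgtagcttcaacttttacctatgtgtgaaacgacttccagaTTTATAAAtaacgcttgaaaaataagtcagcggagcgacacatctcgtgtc

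The Kdm5d window held 2 overlapping matches to the core element, 1 on each strand. The Eif2s3y window held 1 match to the core element and 1 to the Sp1-family element, and the Uty window held 0 of any. Of 32851 RefSeq windows of the same length, the core element was found in 12.4%, the CCAAT element in 33.8% and the Sp1-family element in 32.7%. These motifs were chosen after the data were seen, and the windows show the reference allele, not the C3H allele carried by the hybrid.

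Eif2s3y read 12.54, 12.33, 12.44, 12.40 and 12.55 on the B6C3F1 arrays and 11.54, 11.27, 11.60, 11.38 and 11.55 on the C57Bl/6 arrays. Every B6C3F1 heart lay above every C57Bl/6 heart, by 1.98-fold on average (0.98 ± 0.09, adjusted p = 3.64e-07), and the C3H mean was 12.49 ± 0.07. Kdm5d rose by 1.12 ± 0.13 (2.71e-05), from 7.96 ± 0.22 to 9.08 ± 0.19, with C3H at 9.03 ± 0.12. Uty rose by 1.00 ± 0.16 (7.30e-04), from 8.17 ± 0.31 to 9.17 ± 0.15, with C3H at 9.00 ± 0.26, and its second probe set rose by 1.07. For these 3 genes no C57Bl/6 array overlapped a B6C3F1 array.

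The other Y-linked genes were dim. Zfy2, a zinc finger gene, differed by -0.80 ± 0.32 (adjusted p = 0.184), Orly by -0.53 ± 0.30 (0.354) and Tspy-ps by 0.38 ± 0.41 (0.656), and their arrays overlapped. Sry and Usp9y, on the same list, fell below the dim filter.

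On the X chromosome, 9 genes were higher in B6C3F1 and 2 were lower. Hccs, the enzyme that attaches heme to cytochrome c, rose by 0.85 ± 0.09 (adjusted p = 8.60e-06), with 12.71 to 13.07 in B6C3F1 and 11.87 to 12.12 in C57Bl/6. Its neighbour Mid1, a ubiquitin ligase gene that spans the pseudoautosomal boundary in the mouse, fell by 1.95 ± 0.52 (0.0438). Mid1 varied widely within each group, from 5.44 to 9.18 and from 8.14 to 10.59, so that the arrays overlapped, and it passed in only 2 of the 10 leave-one-out fits. Erdr1, a pseudoautosomal gene, fell by 0.55 ± 0.13 (0.0280), with 10.02 to 10.20 in B6C3F1 and 10.35 to 11.03 in C57Bl/6.

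The other higher X-linked genes were the signalling adaptor gene Bex1 (0.95), the macrophage complement receptor gene Vsig4 (0.72), Sh3bgrl (0.71), Itm2a (0.64), Mospd2 (0.51), the basement membrane collagen gene Col4a5 (0.43), the clathrin adaptor gene Ap1s2 (0.38) and Timp1 (1.06). Sh3bgrl stood at 11.73 ± 0.12 in B6C3F1, 11.03 ± 0.22 in C57Bl/6 and 11.24 ± 0.26 in C3H. Its 2 other probe sets differed by -0.09 and 0.26, and the second Mospd2 probe set by -0.11. The 2 other Ap1s2 probe sets differed by 0.26 and -0.07. Second probe sets of Hccs (0.47), Itm2a (0.33) and Col4a5 (0.22) were higher. None of these other probe sets passed. Of the 11 X-linked genes, Hccs, Bex1, Sh3bgrl and Mospd2 passed in all 10 leave-one-out fits.

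**Figure D2:**
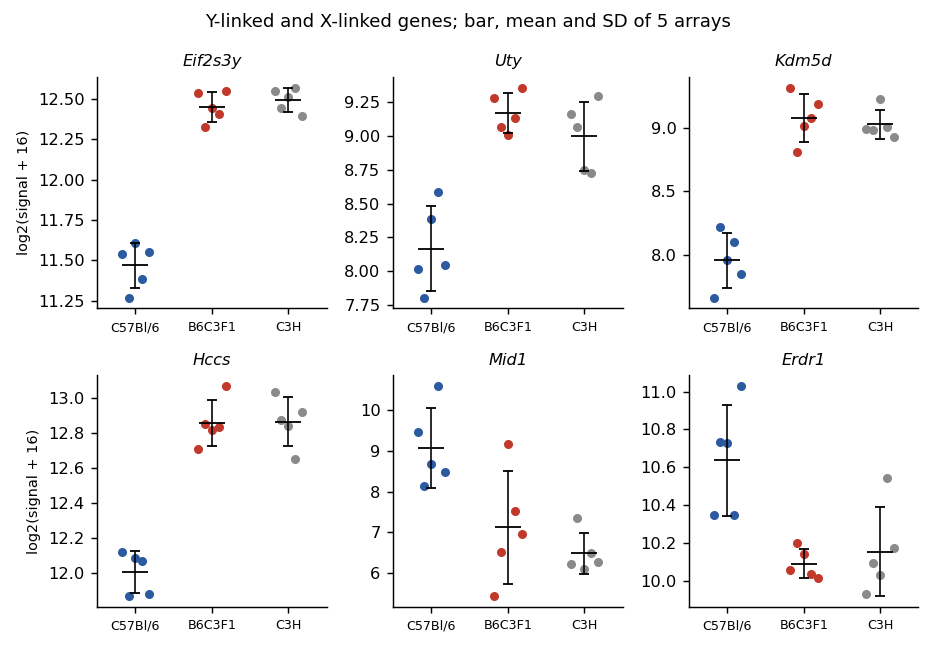
Each point is 1 array, with strain on the x axis and the level as log2(signal + 16) on the y axis; the bar and whiskers are the mean and SD of 5 arrays. Eif2s3y, Uty, Kdm5d and Hccs in B6C3F1 lie near the C3H level and above every C57Bl/6 array, Erdr1 lies below every C57Bl/6 array, and Mid1 overlaps.

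Genes with a known inherited difference between laboratory strains formed a list of 15 tested members, of which 5 rose and 2 fell, beside 3.33% called over all genes. The list was written with earlier results of these data known. Wdfy1, an endosomal adaptor of Toll-like receptor signalling, was 3.75-fold higher (1.90 ± 0.18), and both of its other probe sets were higher (0.90 and 2.88), 1 of them past the threshold. Glo1, the glyoxalase that detoxifies methylglyoxal, was 1.96-fold higher, at 12.72, 12.37, 12.51, 12.63 and 12.29 in B6C3F1 against 11.33, 11.52, 11.77, 11.45 and 11.60 in C57Bl/6. Alad, an enzyme of heme synthesis known to vary in gene copy number between strains, rose 2.73-fold (1.45 ± 0.16, adjusted p = 1.14e-05). It read 12.84, 12.92, 12.82, 12.77 and 12.20 in B6C3F1 and 11.06, 11.64, 11.22, 11.08 and 11.31 in C57Bl/6, so that the arrays did not overlap although B6C3F1 replicate 5 was low. Its second probe set rose by 1.25, and the neighbouring gene Hdhd3 rose by 1.02 ± 0.20.

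Tnni3k, a cardiomyocyte kinase that binds troponin I and is known to be low in some strains, fell by 1.14 ± 0.16 (adjusted p = 1.66e-04). Its levels were 10.62, 10.43, 10.38, 10.65 and 10.28 in B6C3F1 and 11.81, 11.52, 11.52, 11.73 and 11.47 in C57Bl/6, and the C3H mean was 7.30 ± 0.42. Each hybrid heart thus lay below each C57Bl/6 heart. A dimmer probe set of Tnni3k differed by 0.39 and did not pass. Ifi202b, an interferon-inducible gene known to differ between strains, rose by 1.79 ± 0.45 (0.0355), but B6C3F1 spread from 5.10 to 7.79 and overlapped C57Bl/6 at 4.32 to 5.58.

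Of 27 tested genes of the fetal and stress programme, Myh7 and Timp1 rose and 0 fell, beside 3.33% called over all genes, while the list's median difference was 0.34 against 0.01 over all genes and 21 of 27 lay above 0. Myh7, the slow myosin heavy chain, read 10.38, 10.61, 10.68, 10.78 and 10.01 in B6C3F1 and 9.29, 9.40, 8.89, 9.10 and 9.32 in C57Bl/6. The groups did not overlap (2.45-fold, 1.29 ± 0.17, adjusted p = 1.04e-04). The natriuretic peptide genes Nppa (0.53 ± 0.30, adjusted p = 0.348) and Nppb (0.49 ± 0.42, 0.570) overlapped widely. Myh6 differed by -0.11 ± 0.12 and its dimmer probe set by 0.59, neither past the threshold.

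Of 23 sarcomere genes, 2 fell and 0 rose, with a list median of -0.10 and 16 of 23 below 0. Beside the counts of this list and of those below, 3.33% of all genes passed. Mylk3, the cardiac myosin light chain kinase, fell by 0.68 ± 0.12 (adjusted p = 0.00248). It read 12.80, 12.87, 12.74, 12.76 and 13.29 in B6C3F1 and 13.73, 13.42, 13.53, 13.65 and 13.54 in C57Bl/6, so that B6C3F1 replicate 5 stood nearest to C57Bl/6. Tnni3k was the other. Among 43 genes linked to inherited cardiomyopathy, 4 rose and 0 fell: Myh7, Abcc9, the desmosomal plaque gene Pkp2 (0.33 ± 0.08) and the sarcoglycan gene Sgca (0.39 ± 0.10). Of the 3 other Pkp2 probe sets, 2 rose as well (0.55 and 0.60) and a dim one differed by -0.70 without passing.

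Ion channel and conduction genes rose in 4 of 33 cases and fell in 0, beside 3.33% called over all genes, with a list median of 0.01. Beside Kcnj14, Hcn2, a pacemaker channel, rose 2.07-fold (1.05 ± 0.25, adjusted p = 0.0249). Hcn2 read 8.91, 8.67, 9.15, 8.12 and 8.58 in B6C3F1 and 7.36, 8.29, 6.84, 7.65 and 8.06 in C57Bl/6, and the groups overlapped at the lowest B6C3F1 array. Abcc9, the sulfonylurea receptor of the cardiac ATP-sensitive potassium channel, rose by 0.41 ± 0.10 without overlap, and 1 of its 2 other probe sets passed as well. Irx5, a homeobox regulator of the repolarization gradient across the ventricle wall, rose by 0.63 ± 0.16 with an overlap. Hcn2, Abcc9 and Irx5 passed in 4, 5 and 6 of the 10 leave-one-out fits, and Kcnj14 in all 10.

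Calcium handling gave 2 rises and 1 fall among 21 genes, beside 3.33% called over all genes. Slc8a1, the sodium-calcium exchanger, read 11.17, 10.78, 10.76, 10.64 and 10.77 in B6C3F1 and 10.32, 9.92, 10.08, 10.43 and 9.88 in C57Bl/6. It was 1.62-fold higher (0.70 ± 0.12, adjusted p = 0.00197) with no overlap, while its 3 other probe sets ranged from -0.50 to 0.56 and 0 of them passed. Asph, whose locus also encodes junctin and junctate of the calcium release site, rose by 0.58 ± 0.12, and 1 of its 5 other probe sets rose too. Jph2, the junctophilin that holds the T-tubule beside the sarcoplasmic reticulum, gave opposite calls: its brightest probe set fell by 0.41 and the other rose by 0.70. The Jph2 fall had an overlap and passed in 2 of the 10 leave-one-out fits. Of 18 adrenergic and vasoactive receptor and signalling genes, Gnai2, an inhibitory G protein subunit, rose by 0.41 ± 0.11 and 0 fell. Gnai2 passed in 3 of those fits, and its second probe set differed by -0.04.

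**Figure D3:**
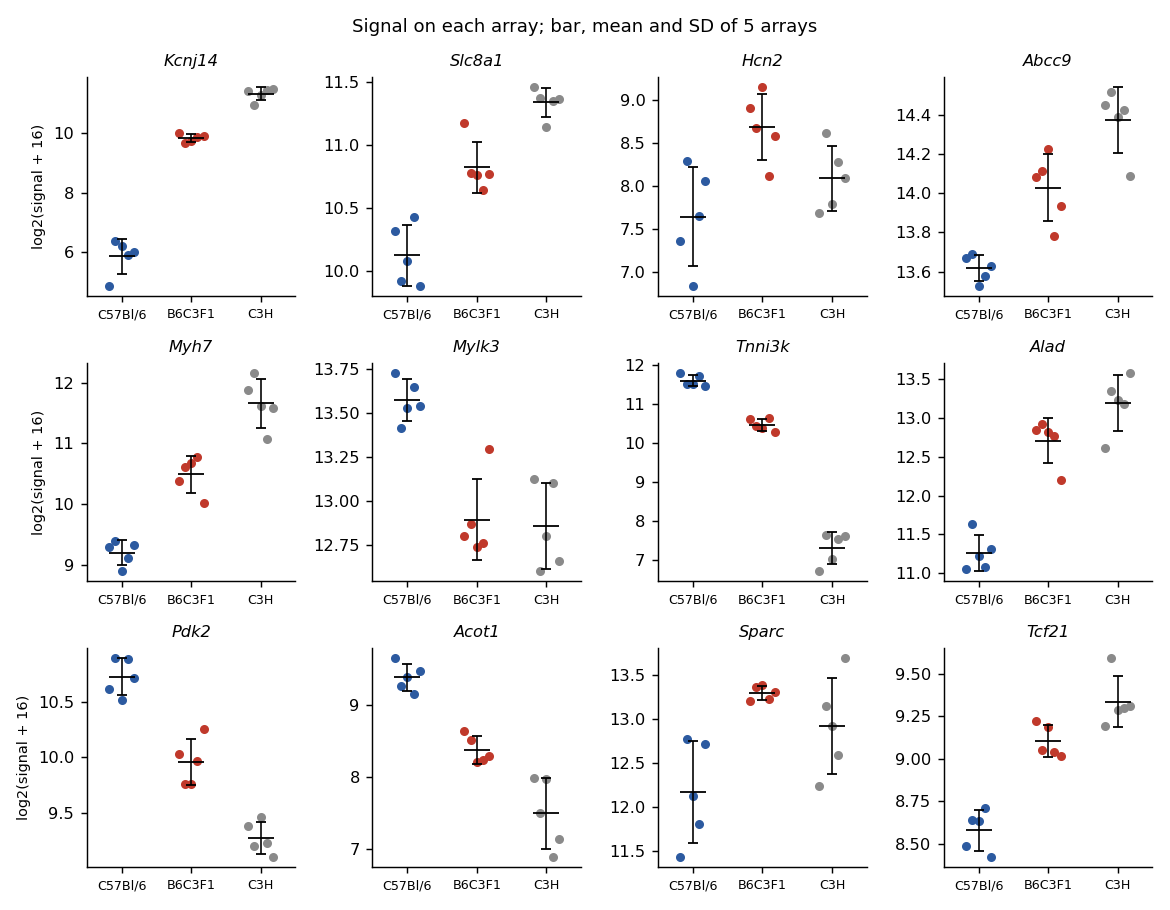
Each point is 1 array, with strain on the x axis and the level as log2(signal + 16) on the y axis; the bar and whiskers are the mean and SD of 5 arrays. Kcnj14, Slc8a1, Myh7, Alad and Tcf21 lie higher and Mylk3, Tnni3k, Pdk2 and Acot1 lower in B6C3F1 than on any C57Bl/6 array, Hcn2 overlaps, and the 5 Sparc values of B6C3F1 lie between 13.21 and 13.38.

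Calls among genes of energy metabolism can be set beside the 3.33% of all genes that passed. Of 33 fatty acid oxidation genes, Acot1, a cytosolic acyl-CoA thioesterase, fell and 0 rose. It read 8.63, 8.52, 8.21, 8.23 and 8.28 in B6C3F1 and 9.65, 9.26, 9.38, 9.16 and 9.47 in C57Bl/6 (2.01-fold lower, -1.01 ± 0.19, adjusted p = 0.00442). The groups did not overlap, and the C3H mean was 7.49 ± 0.49. Of 25 genes of glycolysis and glucose use, Pdk2, a kinase that inactivates pyruvate dehydrogenase, fell 1.71-fold (-0.77 ± 0.12, 6.00e-04) and 0 rose. Among 17 PPAR and PGC1 regulators 0 passed in limma, with 1 at an unadjusted p under 0.05. Of 63 respiratory chain subunits, Sdhc of complex II fell by 0.46 ± 0.10 and 0 rose, and its second probe set differed by -0.50 without passing. Of 21 cholesterol synthesis genes 0 passed in limma, with 3 at an unadjusted p under 0.05.

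Of 33 antioxidant and glutathione genes, 1 rose and 2 fell, beside 3.33% called over all genes. Mgst1, a membrane-bound glutathione transferase, fell by 0.84 ± 0.14 (adjusted p = 0.00109), with C57Bl/6 at 12.36 ± 0.12 and B6C3F1 at 11.51 ± 0.20. Ces1d, a carboxylesterase, fell by 0.65 ± 0.15, and its 2 other probe sets differed by -0.62 and 0.17 without passing. Gpx1, the cytosolic glutathione peroxidase, rose by 0.61 ± 0.15 with an overlap and passed in 3 of the 10 leave-one-out fits. Of 26 glucocorticoid-responsive genes Klf9 fell (-0.54 ± 0.15) and passed in 2 of those fits. Of 20 imprinted genes, 2 rose: Ndn (0.73 ± 0.15), with 3 of its 4 other probe sets also past the threshold, and the antisense RNA Airn (0.68 ± 0.16), whose 2 other probe sets differed by 0.15 and -0.79 and did not pass. Ndn was nearly constant in B6C3F1, from 10.97 to 11.01, and spread from 9.65 to 10.70 in C57Bl/6. Among 23 circadian clock genes 0 passed in limma, with 3 at an unadjusted p under 0.05 and a median of -0.18.

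Of 13 class I and peptide-loading genes for antigen presentation, 3 fell and 0 rose by their brightest probe sets, and of 10 class II genes, 3 fell and 0 rose. Over all genes 3.33% passed. The major histocompatibility complex differs by haplotype between the parents, and its class I genes are near copies of each other. H2-K1 fell by 1.57 ± 0.24, from 12.66 to 13.23 in C57Bl/6 to 11.14 to 11.68 in B6C3F1, and H2-M3 also fell (-0.62 ± 0.15). For H2-D1 the brightest probe set fell by 1.25, while 3 of its 6 other probe sets rose by up to 3.89 and 3 fell, all 6 past the threshold, so that its direction depended on the probe set.

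In class II, H2-Aa, the alpha chain of I-A, read 11.07, 10.85, 11.14, 11.18 and 10.15 in B6C3F1 and 12.08, 12.19, 12.09, 12.14 and 11.85 in C57Bl/6 (-1.19 ± 0.23, adjusted p = 0.00577). None of its 3 other probe sets passed: they differed by -0.04, -0.50 and 0.56, and the first of these was nearly as bright (10.94 in B6C3F1 and 10.97 in C57Bl/6), so that the H2-Aa fall rests on 1 probe set. H2-Eb1 fell by 1.06 ± 0.18 and H2-Ab1 by 0.91 ± 0.21, the latter with an overlap. The log2 of the summed signal of the class II list was 12.34 to 12.98 in B6C3F1 and 13.26 to 13.55 in C57Bl/6. That sum includes the 3 genes that fell, H2-Aa the brightest of them, and is not separate support. Macrophages are among the cells that carry class II; their markers gave 0 calls among 12 in limma (2 at an unadjusted p under 0.05), and their sum was 14.19 to 14.30 against 13.74 to 14.35. In these bulk tissue signals, fewer cells of a type, less RNA per cell and sequence differences under the probes cannot be told apart. Of 33 interferon response genes Ifi202b rose and 0 fell, with a list median of -0.21.

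Matrix genes were higher in 3 of 38 cases and lower in 0, beside 3.33% called over all genes, with a list median of 0.32 and 31 of 38 above 0. Sparc, a collagen-binding matricellular protein, read 13.21, 13.36, 13.38, 13.22 and 13.31 in B6C3F1 and 11.43, 12.77, 12.12, 11.80 and 12.72 in C57Bl/6. All B6C3F1 hearts were higher by this probe set and they varied little (SD 0.08 against 0.58), for a difference of 1.13 ± 0.24 (adjusted p = 0.00983). The second Sparc probe set rose by 0.81 with an overlap and did not pass in limma (adjusted p = 0.0674). Lum, the proteoglycan lumican, rose by 0.78 ± 0.17 with an overlap. Timp1, an inhibitor of matrix proteases, rose by 1.06 ± 0.28 and passed in 3 of 10 leave-one-out fits. The summed matrix signal was 16.81 to 17.02 in B6C3F1 and 16.27 to 16.76 in C57Bl/6, without overlap.

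Markers of other cell types were measured beside these. Of 12 fibroblast markers, Tcf21, a transcription factor of cardiac fibroblasts, and Lum rose, beside 3.33% called over all genes, with a list median of 0.53. Tcf21 was separate in every heart, at 9.02 to 9.22 against 8.42 to 8.71 (0.52 ± 0.11, 0.0116), while its dimmer probe set differed by 0.03. The summed fibroblast signal was 16.16 to 16.54 in B6C3F1 and 16.12 to 16.41 in C57Bl/6. The part of fibroblast number in the matrix differences was not tested.

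All 6 Schwann cell and nerve markers lay above 0, with a median of 0.47, and 1 passed: Gfra3, the receptor for artemin (0.90 ± 0.22, adjusted p = 0.0309). Their summed signal was 11.83 to 12.08 in B6C3F1 and 11.43 to 11.81 in C57Bl/6. No marker of the remaining cell types passed in limma. At an unadjusted p under 0.05 there were 4 of 15 endothelial, 2 of 8 smooth muscle and pericyte, 3 of 7 mesothelial, 1 of 6 atrial, 0 of 4 lymphocyte, 1 of 4 skeletal muscle, 1 of 2 red cell and 0 of 2 adipocyte markers. The share of all genes at that cut is not given here, so that these counts do not set a cell type apart.

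Along the gene order of the annotation, tested neighbours of genes that passed were themselves past the threshold in 76 of 870 places (8.74%), against 3.33% of all genes. Of the 38 adjacent pairs, 20 moved in the same direction and 18 in opposite directions. The 3 runs of 3 adjacent genes were H2-Ab1, H2-Aa and H2-Eb1, all lower, Kat6a, Ank1 and Gpat4, all lower by 0.42 to 0.87, and Paip1, 4833420G17Rik and Tmem267, which differed by 1.66, -0.59 and -0.89. These neighbours were named after their values were seen. The second Ank1 probe set differed by 0.01, and the 2 other Paip1 probe sets by -0.42 and 1.22, none past the threshold.

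Probe sets of one gene did not always give the same answer. The 217 genes that passed and had further tested probe sets had 377 of them, of which 257 had the same sign, 51 passed in the same direction and 10 passed in the opposite one. Beside Pdxdc1, H2-D1 and Jph2, opposite calls were found for Ptp4a2 (0.93 and -0.40), Prxl2c (-0.61 and 0.65), 1500002F19Rik (1.63 and -1.44), Ppp1cb (-0.70 and 1.26) and Kidins220 (0.52 and -0.54). For 113 of the 436 genes the brightest probe set can match several transcripts by its design. Whether sequence differences between the strains under the probes contribute to these differences was not tested.

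The number of calls depended on single arrays. Leaving out 1 of B6C3F1 replicates 1 to 4 left 463, 465, 532 and 519 probe sets, and leaving out C57Bl/6 replicate 1, 3, 4 or 5 left 463, 473, 501 and 654. Without B6C3F1 replicate 5 the count rose to 1351, and without C57Bl/6 replicate 2 to 1407. Leaving out 1 C3H array, which alters the estimate of spread only, gave 732 to 1105. Of the 436 genes, 208 (47.7%) passed in all 10 fits without a B6C3F1 or C57Bl/6 array, and 162 in fewer than 5. Most often lost was Vps37c, a subunit of the ESCRT-I sorting complex (-0.40, adjusted p = 0.0480, passing in 0 of 10). Another 10 genes passed in 1 of 10. Those with the largest adjusted p were 1500009L16Rik (1.19), Top3b (0.52), 3000002C10Rik (0.34), Timm9 (-0.71), Stk38l (-0.68), Brd9 (-0.38) and Uvrag (-0.33).

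**Figure D4:**
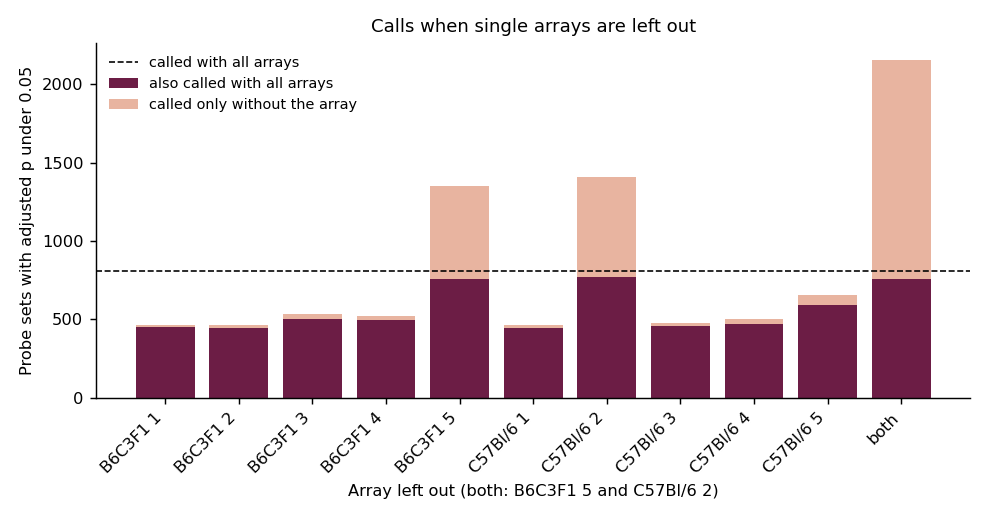
Bars give the number of probe sets with an adjusted p under 0.05 after leaving out the array named on the x axis, with the dark part also called with all arrays and the light part called only without the array. The dashed line is the 807 called with all arrays; the bars without B6C3F1 replicate 5 (1351), without C57Bl/6 replicate 2 (1407) and without both (2157) exceed it.

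Those 2 arrays shared a high heat shock signal. Hspa1b, an inducible HSP70 gene, read 9.53, 9.49, 8.24, 11.97 and 14.43 in B6C3F1 and 8.85, 14.13, 9.84, 9.63 and 9.86 in C57Bl/6. Hspa1a, its neighbouring near copy, read 8.65, 8.42, 7.51, 10.18 and 12.20 against 8.14, 12.40, 9.42, 9.03 and 8.84. In each group 1 heart, B6C3F1 replicate 5 or C57Bl/6 replicate 2, stood highest, and neither gene passed between the strains (0.27 ± 0.98 for Hspa1b, adjusted p = 0.914, and -0.18 ± 0.77 for Hspa1a, 0.930). The co-chaperone genes Dnajb1, Dnaja1 and Hsph1 were also highest in these 2 hearts. Of the 30 heat shock and folding genes tested, 0 passed between the strains in limma, with 7 at an unadjusted p under 0.05 and a list median of -0.16. These genes and arrays were singled out after their values were seen.

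On the first principal component of the 10 arrays, which held 22.8% of the variance, B6C3F1 replicate 5 (12.5) and C57Bl/6 replicate 2 (-0.47) were the arrays of each group nearest to the other group. Cox8b, a muscle subunit of cytochrome c oxidase, went with them: B6C3F1 read 14.46, 14.78, 14.59, 14.73 and 12.95 and C57Bl/6 read 12.58, 14.44, 12.71, 12.66 and 13.16. The hybrids were higher among the other hearts, and in the pair of heat-shock-high hearts the order was turned. With all arrays Cox8b did not pass (1.19 ± 0.38, adjusted p = 0.0957).

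Leaving out both arrays, an alternative chosen after the data were seen, gave 2157 probe sets, 1049 higher and 1108 lower, of which 755 had passed with all arrays. The arrays left out were those nearest to the other group, and leaving out either had raised the count. A higher count thus follows from their choice, and the genes gained are not separate support for a strain difference. Of the genes, 605 were higher (4.61%) and 552 lower (4.21%). In the respiratory chain list, 9 of 63 members were then higher against 0 with all arrays, and Sdhc remained lower. The 9 were Cox8b (1.86), Uqcr10 (1.44), Ndufa7 (0.83), Cox7a1 (0.80), Ndufb2 (0.74), Ndufa6 (0.68), Atp5e (0.68), Ndufs8 (0.49) and Ndufb10 (0.44), subunits of complexes I, III, IV and V. With all arrays these 9 differed by 0.21 to 1.19 and had adjusted p-values of 0.0937 to 0.459.

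The same limit holds for other lists in that fit. Acta1, the skeletal actin of the fetal heart (1.61), Nmrk2, a nicotinamide riboside kinase (1.04), and Hk1, a hexokinase (0.50), joined Myh7 (1.46) and Timp1 (1.22), so that 5 of 27 genes of the fetal and stress programme were higher. Loxl1 (0.74) and Thbs4 (0.67) joined the matrix genes, for 5 of 38. The ion channel list then held 5 higher members, with Kcne1 (1.56) added, and 2 lower, the calcium channel subunit gene Cacna2d1 (-0.83) and the potassium channel gene Kcnj11 (-0.46). Of the 15 endothelial markers, 3 were lower against 0 with all arrays: Pecam1 (-1.12), Tek (-0.46) and Egfl7 (-0.41). With the mean of Hspa1a and Hspa1b as a covariate and all arrays kept, 794 probe sets passed. Why these 2 hearts stand apart was not tested.

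**Figure D5:**
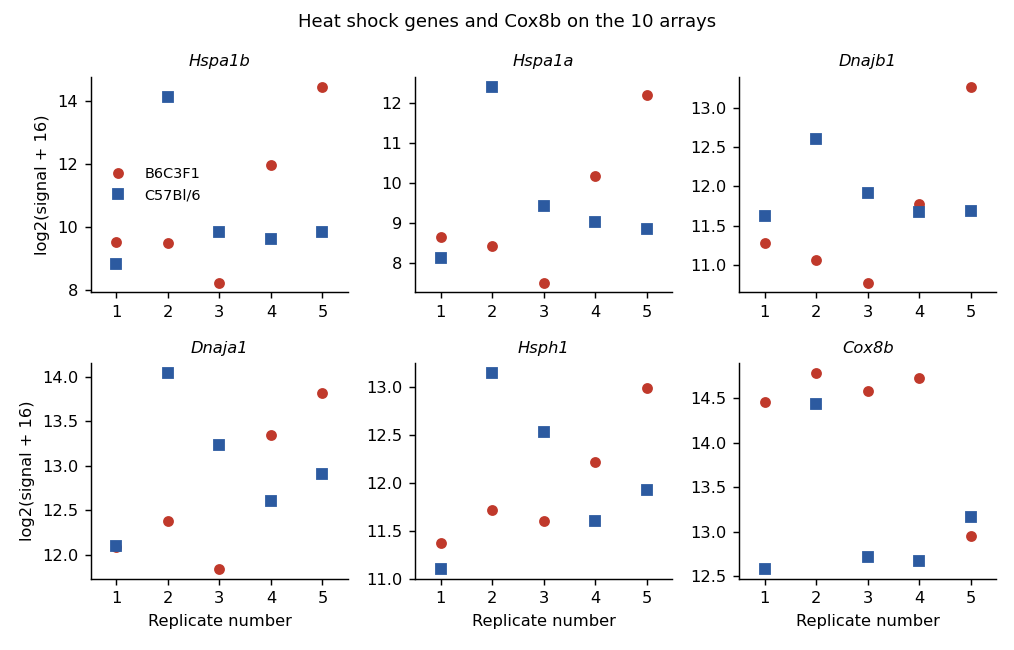
Each panel plots 1 gene, with the replicate number, which only names an array, on the x axis and the level as log2(signal + 16) on the y axis; circles are B6C3F1 and squares C57Bl/6. Hspa1b stands at 14.43 in B6C3F1 replicate 5 and 14.13 in C57Bl/6 replicate 2, the same arrays on which Cox8b is 12.95 and 14.44.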

How the data were processed

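Heart apex RNA (50 ng, two-cycle labelling) of 15 male mice was measured on Affymetrix arrays. The authors deposited log2 values; the submitters' processing notes name MAS5, with no version given in the sources used here. The log2 scale was read from the values. Of 45096 probe sets, 64 controls were left out; 34940 had 1 gene symbol. Values were returned to linear signals, 16 was added and log2 taken; probe sets under the 40th percentile of means (5.74) were not tested. Differences were fitted with limma 3.58.1 in R 4.3.3 (lmFit, eBayes with trend) over all 15 arrays; quality measures were tested by exact permutation with scipy 1.17.1 in Python 3.11.15. The procedure was tested on simulated data.

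The genes named were the 15 largest rises and falls without overlap, up to 4 passing members of each list (all of them where 6 or fewer passed), the 8 most often lost genes, genes with opposite calls, and always Myh6, Myh7, Nppa, Nppb, Nnt, H2-Ea and Tnni3k; others are said to be chosen later. Of the 15 largest rises, 1 is not reported here. Members and lists were chosen with earlier results of these data known. Sample numbers in the titles run in a block per strain, so that handling order and strain cannot be told apart; no hybridisation batch is given in the sources used here.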

Additional observations from a re-analysis of the deposited data

Results flagged for a closer look

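In each group of 5 arrays, the highest or lowest value of a named gene or quality measure was checked for a gap to its nearest neighbour large enough to pass Dixon's 95% critical value for 5 values. This held in 12 of 210 groups (5.71%), where values drawn at random give about 1 in 20. Most of these genes were named for their values. Cox8b and the heat shock genes were named after their values on B6C3F1 replicate 5 and C57Bl/6 replicate 2 were seen. The count is therefore no test against chance, and the flags of those genes add nothing about those arrays. B6C3F1 replicate 5 accounted for 4 of the 12: Alad was low there at 12.20 (the others 12.77 to 12.92), Cox8b was low at 12.95 (14.46 to 14.78), Jph2 was high at 13.08 (12.55 to 12.67) and Mylk3 was high at 13.29 (12.74 to 12.87). C57Bl/6 replicate 2 was high for Hspa1b at 14.13 (8.85 to 9.86) and for Vps37c at 11.73 (11.37 to 11.44).

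The remaining values were spread over other arrays. C57Bl/6 replicate 1 was high for Gbp2b at 6.32 (4.22 to 4.77) and low for Itga9 at 6.82 (7.62 to 7.72). C57Bl/6 replicate 3 was high for Ap1s2 at 11.89 (11.64 to 11.69), and C57Bl/6 replicate 5 was high for Ccnb1ip1 at 5.21 (4.25 to 4.48). B6C3F1 replicate 1 was high for Slc8a1 at 11.17 (10.64 to 10.78) and for Sorcs2 at 7.78 (7.22 to 7.36).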

How the results depend on the processing

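Of 34 alternatives, 32 were planned. The 807 probe sets became 481 after median centring, 502 with 1 probe set per gene, 468 with eBayes without a trend, 1741 with array weights, 156 against a 1.2-fold minimum, and 2157 without B6C3F1 replicate 5 and C57Bl/6 replicate 2 (chosen after the data were seen); leaving out 1 array gave 463 to 1407. The replicate number as a block gave 819; same-numbered arrays did not deviate together (correlations -0.06 to 0.07, with replicate 2 alone matching best with its own number), so that the numbers do not pair the mice. With 1 array left out the Gapdh ratio differed by -0.0543 to 0.10 and the poly-A signal by -0.25 to 0.12.

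Of the 89 named genes that passed, 36 stayed past the threshold in the same direction under every alternative that could be fitted. Without the multi-transcript probe sets, Ank1 turned to 0.012 and Hspa1b to -0.085, and after median centring Nnt turned to 0.029. Among named genes that had not passed, the sign also turned in some fits with 1 array left out: Nnt ranged from -0.0768 to 0.042, Hspa1b from -0.65 to 1.19, Hspa1a from -0.88 to 0.53, Hsph1 from -0.33 to 0.19 and H2-Ea from -0.43 to 0.095. Where a cause is not named here, the cause was not tested. Calls near the threshold are limited by 5 arrays a group.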
